A study of Mus musculus with 9 samples.

Results

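The regions described here were distal stretches of open chromatin inside protein-coding genes that were called in monocyte-derived peritoneal macrophages and in neither of the other populations of the study. They were chosen by their peak calls: all peaks of the 3 deposited lists were merged where they overlapped by at least 1 bp. A merged region was kept if it held monocyte-derived peaks only, lay more than 1 kb from every start and end of a protein-coding gene, and overlapped the body of such a gene. The rule found 6144 regions among 36843 merged regions. Monocyte-derived-only regions of any position made up 39.5% of all merged regions, and the 6144 members made up 46.6% of the 13196 distal regions inside genes. Since the rule used the peak calls, these shares describe the selection and are not findings.

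Open chromatin had been mapped by ATAC-seq, in which a transposase cuts and tags exposed DNA, in sorted peritoneal macrophages of mice. All 3 groups of 3 samples had the genotype Cx3cr1CreERT2-IRES-EYFP/+ Rosa26-stopfl-tdTomato/+, which places a tamoxifen-dependent Cre under Cx3cr1 control together with a reporter that Cre switches on. Every mouse also received IL-4 complexes, made of 5 µg IL-4 with 25 µg anti-IL-4, every other day in the last 4 days before cells were taken, and was bred under specific-pathogen-free conditions. The monocyte-derived group was in addition injected with 2 ml thioglycollate and harvested at day 4. The tissue-converted group had 2 ml thioglycollate and a continuous tamoxifen diet of 8 weeks, and no treatment of its own is labelled for the tissue-resident group. Origin, thioglycollate, tamoxifen and time therefore differ together between groups and cannot be told apart. The labels do not say whether the 3 samples of a group came from separate mice, and each group has 1 merged peak list, so no value has a spread between replicates and no test between groups was made. Intervals below are 95% intervals (Wilson for shares, Newcombe for differences, order statistics for medians) and cover counting error over regions or genes, which are not replicates and, where close together, not independent.

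Distal open regions inside genes are often enhancers, which act on the promoter of their own gene or on that of another gene, and some are alternative promoters of the gene they lie in. Macrophages that arise from recruited blood monocytes start from a chromatin landscape unlike that of long-lived resident macrophages, and the tissue environment is known to reshape it with time. Enhancers differ between macrophages of different tissues and origins more than promoters do. The annotation used gives no exons, so exonic and intronic positions are not stated.

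The 3 lists differed in length, and this bears on every count here. The monocyte-derived list held 33694 peaks, the tissue-converted list 15552 and the tissue-resident list 24348. Peaks at p-values above 1e-05 numbered 1267, 0 and 5476 in the same order, so the lists did not end at the same p-value. Sequencing depth is unknown, so a region missing from a tissue list may have been closed or may have been below detection there. With each list cut to its 15552 peaks of smallest p-value, 2346 regions met the rule, of which 1910 were among the 6144. Of the genes that mark other cells a peritoneal sort could hold, the lists for B cells and for eosinophils and mast cells had members in 0 of 10 genes each. The lists for T and NK cells and for neutrophils had members in 1 of 10 genes each, Themis and Cxcr2. Mesothelial and stromal markers had members in 2 of 10 (Pdgfra and Pdgfrb), and dendritic cell markers in 3 of 10. Over all protein-coding genes 14.7% had a member. The dendritic cell genes held 10 members among 13 distal regions (76.9%, 49.7 to 91.8%), or 19.7 per Mb of gene body against 5.86 over all genes. Of the 10, 7 lay in Bcl11a, a zinc finger factor gene, 2 in Zbtb46 and 1 in Flt3. The part of other cells in the result was not tested.

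**Figure D1:**
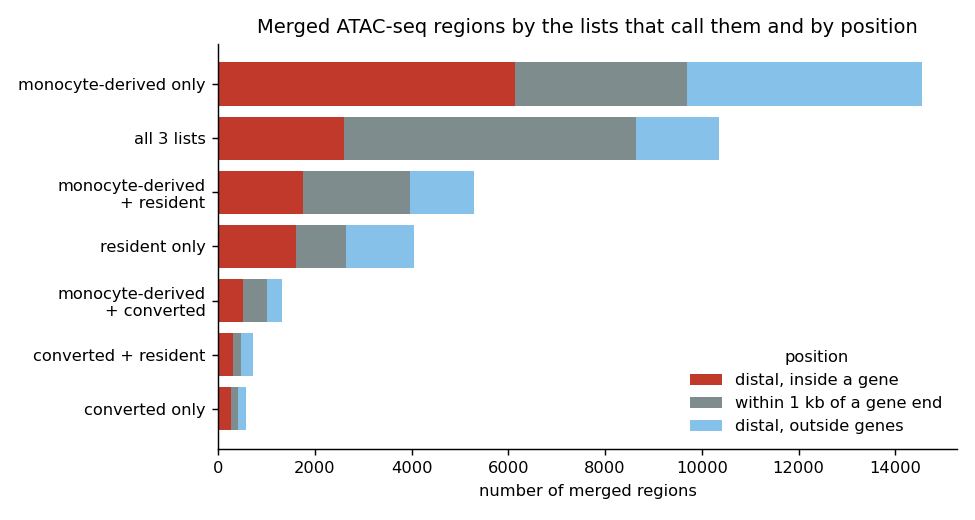
Number of merged ATAC-seq regions (x axis) for each combination of peak lists that calls them (y axis), split by position relative to protein-coding genes. The 6144 monocyte-derived-only distal regions inside genes form the red part of the top bar, and the regions of all 3 lists are mostly within 1 kb of a gene end.

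Some members covered a start of a transcript that lies inside a longer gene, so their letters can be read from the RefSeq windows around listed starts (GRCm38.p6, the build of the peak lists). Of the 6144 members, 167 (2.72%, 2.34 to 3.16%) covered such a start, and 146 of these covered a start of their own host gene. Members in genes without a listed start count in this share too. A start of a long noncoding RNA was covered by 23 members. The sequences below are the parts of a member that lie just upstream of the start it covers, 5′ to 3′ on the strand of the gene. They are shown because a reader can see in them what kind of DNA was open. Capitals mark matches to any of 11 motifs searched on both strands, and sequences with no match are all in lower case. The 6 genes were picked from 14 such members after their values had been seen: 5 with the smallest p-value and those in the gene lists described further on. The first 3 lay far from any peak of the tissue lists.
Jmjd1c (chr10:67185539-67185749, plus strand): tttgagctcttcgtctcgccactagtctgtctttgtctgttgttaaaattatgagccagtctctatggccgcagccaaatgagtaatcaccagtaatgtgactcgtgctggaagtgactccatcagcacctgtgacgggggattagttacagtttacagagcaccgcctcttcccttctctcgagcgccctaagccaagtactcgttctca
Ptpn22 (chr3:103860139-103860276, plus strand): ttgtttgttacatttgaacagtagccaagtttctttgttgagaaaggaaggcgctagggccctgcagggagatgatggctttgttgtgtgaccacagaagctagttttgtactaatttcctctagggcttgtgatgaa
Runx3 (chr4:135152464-135152544, plus strand): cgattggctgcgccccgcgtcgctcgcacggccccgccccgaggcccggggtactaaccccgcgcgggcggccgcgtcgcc

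Jmjd1c encodes a protein of the JmjC histone demethylase family. Its member of 250 bp had the smallest p-value that the list gives, 1e-12, lay 89.4 kb into the gene and was 40.3 kb from the nearest tissue peak. Ptpn22, a phosphatase gene that restrains signalling from immune receptors, had its member 3.70 kb into the gene at a p-value of 7.44e-09, with the nearest tissue peak 50.6 kb away. A further member of Ptpn22, of 150 bp, lay 7 bp from another listed start of the gene. The member of Runx3, which encodes a Runt-domain transcription factor of leukocytes, lay 31.9 kb into the gene at a p-value of 7.44e-09 and 82.5 kb from a tissue peak. Of its 81 bases shown, 82.7% were G or C, against 43.5% for Ptpn22 and 49.3% for Jmjd1c. The 3 stretches thus differed widely in base composition, and none of them held a motif.

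The other 3 lay beside a peak of a tissue list without touching it.
Fancc (chr13:63431746-63431838, minus strand): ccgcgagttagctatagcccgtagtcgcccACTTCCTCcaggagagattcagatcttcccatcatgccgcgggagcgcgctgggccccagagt
Ecpas (chr4:58912750-58912838, minus strand): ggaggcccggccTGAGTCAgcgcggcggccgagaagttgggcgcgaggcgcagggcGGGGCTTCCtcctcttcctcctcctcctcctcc
Mef2a (chr7:67372859-67372988, minus strand): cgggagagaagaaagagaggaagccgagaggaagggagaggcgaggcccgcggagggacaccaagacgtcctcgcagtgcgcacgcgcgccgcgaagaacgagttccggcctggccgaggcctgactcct

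Fancc, a gene of the Fanconi anaemia DNA repair pathway, had a member at the smallest p-value that was 0.051 kb from a tissue peak. Its capitals are a match to the ETS motif GAGGAAGT, here on the opposite strand. The member of Ecpas, which encodes a proteasome adaptor, held an AP-1 motif (TGANTCA) and an NF-kappaB motif (GGGNNTTCC) and was 0.101 kb from a tissue peak. Mef2a, a MADS-box transcription factor gene, had a member 0.101 kb from a tissue peak with no motif. In these 3 genes the monocyte-derived peak and a tissue peak were neighbours that did not overlap. Whether the neighbouring peaks mark the same open region or separate ones was not tested.

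Motifs were counted in 300-base windows around the covered starts, 250 bases before to 50 after. The 167 members covered 177 listed starts, and 1 window was counted per member or region, the first listed. A match describes the letters and is neither a binding site nor a cause. The AP-1 motif was present in 14 of 167 windows covered by a member (8.38%, 5.06 to 13.6%), in 4.56% of 482 windows covered by an intragenic region of all 3 lists, and in 7.85% of all 32619 listed windows. The CEBP motif, spelled TTGCNNAA, was present in 13.8%, 8.92% and 10.9%, in the same order. A KLF motif, spelled CCACCC, was present in 38.3%, 39.8% and 31.6% of the windows. A GATA motif, spelled AGATAA, was present in 6.59%, 3.73% and 11.2%. The median G and C content of the windows was 59.7%, 63.3% and 53% in the same order, and its part in the motif shares was not tested. The intervals of the member windows included the share of all listed windows for each of these motifs. The 7 others were ETS and NF-kappaB as spelled above, RUNX (the letters TGTGGTTT), IRF (the letters GAAANNGAA), STAT6 (the letters TCCNNGGA), CRE (the letters TGACGTCA) and the E-box (the letters CACGTG). Motifs of this kind can overlap each other. These 7 were present in 2.40% to 12.6% of member windows and in 1.79% to 11.7% of all listed windows.

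Few members lay near a listed start, but the RefSeq windows do not list every gene. They have no chromosome 18, which held 210 members, and list a start for 2577 of the 3184 host genes. Regions in genes without a listed start still count in the shares below, and the part of this gap was not tested. Of the 6144, 318 (5.18%, 4.65 to 5.76%) lay within 250 bp of a listed start of a protein-coding gene. The share was 11.1% for distal intragenic regions called in the monocyte-derived and resident lists, 21.4% for those in all 3 lists and 6.08% for those in the resident list alone. Members were 16.2 percentage points below the regions of all 3 lists (interval of the difference 14.6 to 17.9). This position was not used by the rule beyond its limit of 1 kb from the outer ends of genes. Distances ran from the edges of a region, and regions of all 3 lists were wider than members, at medians of 250 and 125 bp. The part of width in the difference was not tested. Members and resident-only regions had similar shares, with intervals that overlapped (4.65 to 5.76% and 5.01 to 7.35%).

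The members were short single peaks. Their median width was 125 bp, with quartiles of 100 and 175 bp and a range of 75 to 550 bp, and 5778 of them (94.0%) were made of 1 peak. Together they covered 863.2 kb. The deposited p-value of a member, which belongs to the peak and ranks it within its list, had a median of 4.13e-06, with quartiles of 1.69e-06 and 6.91e-06. Members at p-values above 1e-05, the value in the names of the lists, numbered 324. At the other end 122 members (1.99%, 1.67 to 2.37%) reached the smallest value, 1e-12. Most members thus stood close to the threshold of their list.

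Other monocyte-derived peaks in the same kind of place were stronger where a tissue list also called them. The share at the smallest p-value was 41.7% (39.9 to 43.6%) for distal intragenic regions of all 3 lists. It was 6.98% (5.87 to 8.27%) for those shared with the resident list and 7.74% (5.71 to 10.4%) for those shared with the converted list. At p-values of 1e-06 or smaller the shares were 13.1% for members and 52.6% for regions of all 3 lists. These values belong to the contrast that chose the members and are given without a test. Monocyte-derived-only regions outside genes had 2.14% at the smallest value, and the difference of members from them was -0.152 percentage points (-0.701 to 0.379). Those within 1 kb of a gene end had 0.958%, which put members 1.03 points above them (0.532 to 1.49).

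**Figure D2:**
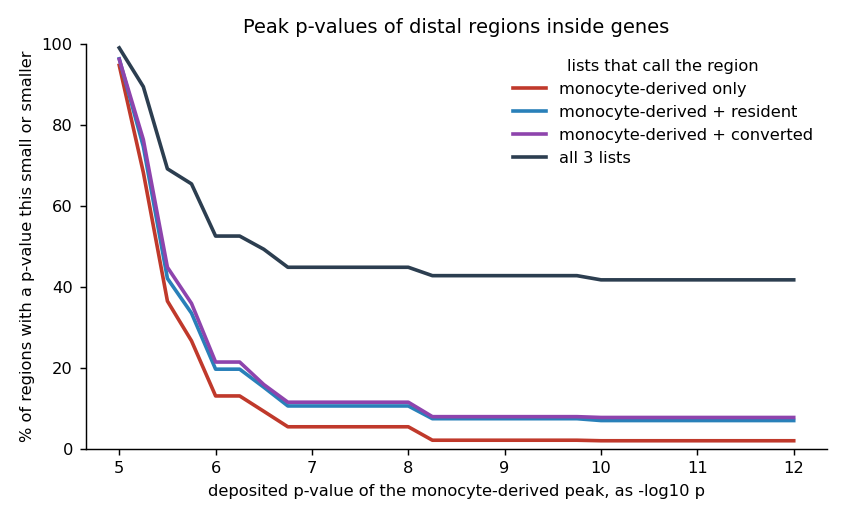
Percentage of distal intragenic regions (y axis) whose monocyte-derived peak had a deposited p-value at least as small as the value on the x axis (-log10 p), by the lists that call the region. At the smallest p-value the curves end at 1.99% for monocyte-derived-only regions and at 41.7% for regions of all 3 lists.

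The 10 members of smallest p-value, taken by width among the 122, were 400 to 500 bp wide. The widest were a region of 500 bp in Rnf217, an E3 ubiquitin ligase gene (chr10:31557164-31557663), and one of 500 bp in Lsm14a, which encodes an RNA-binding protein of processing bodies (chr7:34347989-34348488). The Rnf217 member was 18.7 kb and the Lsm14a member 34.9 kb from the nearest tissue peak. Members of 475 bp lay in Vps13b, a lipid transfer protein gene (chr15:35724639-35725113, 32.0 kb), and in Smap2, which encodes a GTPase-activating protein for Arf (chr4:121009039-121009513, 7.65 kb from a tissue peak). The remaining 6 lay in Crybg3, Ptpre, Akap6, Focad, Gpa33 and Dpys. Ptpre encodes a receptor-type tyrosine phosphatase, and its member (chr7:135588714-135589163) was 7.70 kb from a tissue peak. Gpa33 encodes a surface glycoprotein best known from intestinal epithelium, and its member (chr1:166137464-166137863) had a tissue peak 0.326 kb away, the nearest of the 10.

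The 1 kb limit from gene ends passed through a continuum. Just inside it were members in Arl8a, Hjurp, Ttll11, Patz1 and Matn2 (shared with 9430069I07Rik), 1005 to 1009 bp from a gene end and 75 to 125 bp wide. Just outside it were regions in Slc35a1, Impact, Knop1, Rbm11 and Slc25a46, 994 to 1000 bp from an end and 75 to 200 bp wide. The p-values were of the same order on both sides, 3.00e-06 to 8.60e-06 inside and 1.50e-06 to 8.60e-06 outside. With a limit of 2.5 kb, 5434 of the members remained.

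Most members were far deeper in their genes than the limit asked. The distance to the nearest protein-coding gene end had a median of 16.9 kb, quartiles of 5.95 and 41.2 kb and a highest value of 794 kb. That nearest end belonged to a gene that the member lay in for 5660 of the 6144 (92.1%, 91.4 to 92.8%), and 77 members lay in more than 1 gene. Where RefSeq's windows give the strand, which they did for 2577 host genes (80.9%), positions were measured from the 5′ end. Over 4976 pairs of member and gene the median position was 40.5% of the gene's length (39.3 to 41.8%), and 60.1% of pairs lay in the part of the gene nearer to its 5′ end. The first 10% of the gene held 13.4% of pairs (12.5 to 14.4%) and the last 10% held 6.57% (5.92 to 7.29%). Distal intragenic regions of all 3 lists were nearer to the 5′ end, at a median of 35.2% (33.5 to 37.0%), and resident-only regions farther from it, at 44.2% (41.2 to 47.3%). The intervals of members and of regions of all 3 lists did not overlap, while those of members and resident-only regions did.

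Tissue peaks were often in the neighbourhood of a member. The nearest converted or resident peak was at a median distance of 10.5 kb, with quartiles of 2.13 and 32.2 kb. It was within 0.1 kb for 198 members (3.22%), within 1 kb for 1138 (18.5%) and within 10 kb for 3024 (49.2%, 48.0 to 50.5%). Monocyte-derived-only regions outside genes had a tissue peak within 10 kb in 42.5%, so the members' share was 6.75 points higher (4.88 to 8.62). For those near gene ends it was 65.5%. Resident peaks were closer, at a median of 12.3 kb, than converted peaks, at 21.2 kb, in the order of the lengths of the lists. A narrow overlap was seldom what kept a region out of the class: of 4860 intragenic distal regions that a monocyte-derived and a tissue peak shared, 63 (1.30%) overlapped by 25 bp or less.

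Host genes, those with 1 or more members, numbered 3184 of 21631 protein-coding genes, or 14.7%. Of these, 1810 (56.8%) held 1 member, 683 held 2 and 691 held 3 or more. Genes with 3 or more members were 3.19% of all protein-coding genes, and they held 3016 members (49.1%, 47.8 to 50.3%). Hosts were long genes, with a median length of 61.2 kb against 14.0 kb for other genes. The share of genes that were hosts went from 2.17% of those up to 10 kb long through 11.3%, 24.2% and 43.7% to 44.5% of those over 300 kb. Per length of gene the members did not follow that order. They were sparsest in genes over 300 kb, at 2.56 members per Mb of gene body, and stood at 5.99 to 8.03 per Mb in the 4 classes of shorter genes. The X chromosome had 2.39 members per Mb of gene body, against 4.72 to 7.39 on the autosomes. Members were 110 of the 211 distal intragenic regions there (52.1%, 45.4 to 58.8%).

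Hosts also had open gene ends more often than other genes, a feature that the rule did not use. A region called in all 3 lists lay within 1 kb of an end of 39.4% of hosts (37.7 to 41.1%) and of 25.0% of the other genes. Within each class of gene length the hosts were higher: 32.7% against 16.1% up to 10 kb, 38.9% against 31.1% at 10 to 30 kb, and 41.6% against 35.2% at 30 to 100 kb. In longer genes the shares were 41.8% against 22.8% for 100 to 300 kb and 26.6% against 8.74% over 300 kb. Inside the gene body, 1836 hosts (57.7%) also had a region of all 3 lists, and 711 (22.3%, 20.9 to 23.8%) had no region of a tissue list at all. No matching share of other genes is given for these counts, so they are not read as traits of the hosts.

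**Figure D3:**
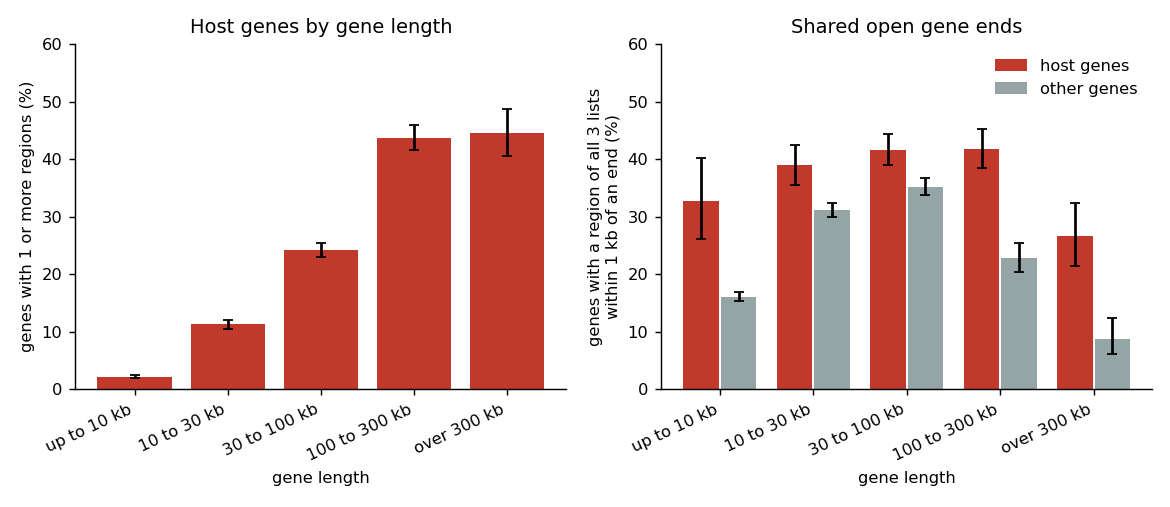
Left, percentage of protein-coding genes with 1 or more monocyte-derived-only distal regions, by gene length. Right, percentage of host genes and other genes with a region of all 3 lists within 1 kb of a gene end. Error bars are 95% Wilson intervals. Hosts rise from 2.17% to 44.5% with length, and in every length class hosts are above other genes.

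The genes with the most members were Vps13d with 18, Arhgap26 with 17, Zmiz1 with 15, Sgms1 with 14 and Tbc1d1 with 13. Etv6, Prkag2 and Foxp1 had 12 each, and Ptprj and St8sia1 had 11 each. Vps13d (chr4:144871045-145195037) encodes a lipid transfer protein needed for mitochondrial shape and clearance, and held 18 members among 27 distal regions. With its ends included it held 8 regions of all 3 lists, most of them 288 to 303 kb from its 5′ end. Of its 18 members 5 also lie in Dhrs3, a retinaldehyde reductase gene that overlaps it, so they count for both genes. So do 4 of the 8 regions of all 3 lists. Arhgap26 (chr18:38601617-39376285), a gene of a GTPase-activating protein, held 17 of 25. In this gene of 775 kb they lay between 337 and 718 kb from the end of lower coordinate. Tbc1d1 (chr5:64156305-64351486), which encodes a GTPase-activating protein for Rab, held 13 of 16. Sgms1 (chr19:32122727-32389885) encodes a sphingomyelin synthase, and Prkag2 (chr5:24862735-25106282) a regulatory subunit of the AMP-activated kinase. Sgms1 held 14 of 22 and Prkag2 12 of 19 regions as members.

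Among the transcriptional regulators in that group, Zmiz1 (chr14:25457875-25666743), a coactivator gene, held 15 members among 23 distal regions. It had no region of all 3 lists, 7 of the monocyte-derived and resident lists and 1 of the resident list alone, so no converted peak was called inside it. Its first 12 members lay within 69.1 kb of a gene end, at widths of 75 to 275 bp. The strongest of them, of 150 bp and 125 bp, had p-values of 3.77e-07 and lay 9.84 and 12.4 kb from the end. Etv6 (chr6:134035700-134270158) encodes an ETS-family repressor and held 12 of 20, and Foxp1 (chr6:98925342-99522746) encodes a forkhead repressor and held 12 of 21. All 12 members of Etv6 were at least 2.18 kb from a tissue peak.

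Ptprj and St8sia1 stood out by how few other regions they held. Ptprj (chr2:90429756-90580694), the gene of the receptor-type phosphatase CD148, had 11 members among 13 distal regions, with tissue peaks 0.026 to 16.9 kb away. St8sia1 (chr6:142821541-142989528) encodes the sialyltransferase that makes the ganglioside GD3. It held 11 members among 12 distal regions, and the remaining region was called in all 3 lists. Every member of St8sia1 was at least 30.8 kb from a tissue peak, and the farthest was 134 kb away. The 6 that lay closest to that region were within 8.72 kb of each other, at widths of 100 to 175 bp and p-values of 3.77e-07 to 1.01e-05. At equal list lengths 6 of St8sia1's regions met the rule, 6 in Zmiz1 and 5 in Ptprj. Vps13d, Tbc1d1, Sgms1 and Arhgap26 then had 7 each, and Etv6, Foxp1 and Prkag2 had 3 each.

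**Figure D4:**
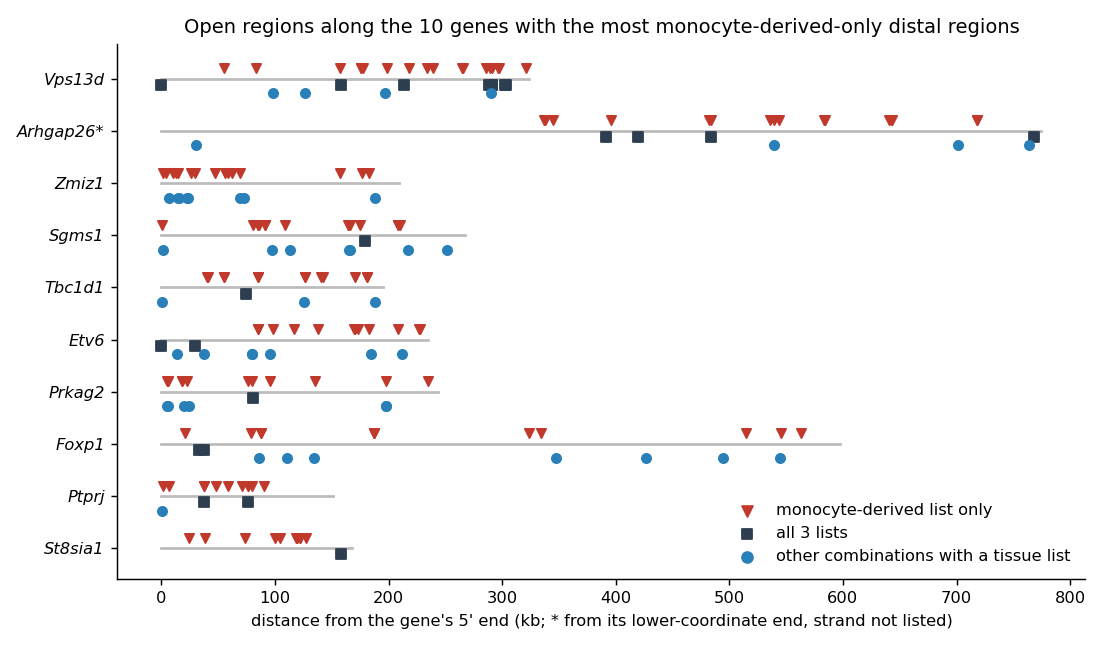
Position of each merged region (kb from the 5′ end of the gene, or from the end of lower coordinate for Arhgap26, whose strand is not listed) along the 10 genes with the most members, 1 gene per line. Triangles are monocyte-derived-only regions, squares are regions of all 3 lists and circles are other regions that a tissue list calls. All triangles are members except 1 in Sgms1, 0.784 kb from the 5′ end. St8sia1 has 11 triangles and 1 square, while Zmiz1 has no square.

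By number per length of gene the ranking was different. Among genes with at least 4 members, Bbc3 (chr7:16308398-16318334), which encodes the proapoptotic protein PUMA, had the highest density with 4 members in 9.94 kb. Ncf4 (chr15:78244164-78262582), the gene of the p40phox subunit of the phagocyte NADPH oxidase, had 4 in 18.4 kb, and a region of all 3 lists stood at a gene end. Ralgds (chr2:28513089-28553082), an exchange factor gene for Ral GTPases, had 8 in 40.0 kb among 9 distal regions. The members of Ralgds were 6.35 to 15.9 kb from a tissue peak. Rhbdf2 (chr11:116598148-116626960) encodes iRhom2, which brings the TNF-releasing protease ADAM17 to the cell surface. It had 4 members, of 175, 125, 150 and 200 bp, and no other region, and all 4 were 34.2 to 42.6 kb from a tissue peak. The other 6 dense genes were N4bp2l1, Cyb5r3, Elmo2, Dhrs3, Sh3bp2 and Gnptab, with 4 to 9 members each. Bbc3 and Sh3bp2 had 0 regions that met the rule at equal list lengths, and Ncf4, N4bp2l1, Cyb5r3 and Elmo2 had 1 each. Rhbdf2 then had 2, Ralgds 3, Dhrs3 4 and Gnptab 5. Without members that had a tissue peak within 1 kb, Bbc3 and Sh3bp2 had 1 left, N4bp2l1 2, Cyb5r3 and Dhrs3 3 and Gnptab 8. Ncf4, Ralgds, Rhbdf2 and Elmo2 kept all of theirs.

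Members lay in runs in some genes, although most stood alone. Joined where they were within 10 kb of each other, the 6144 formed 4538 runs, and 3392 members (55.2%) had no other member within that distance. Runs of 3 or more numbered 330 and held 1120 members (18.2%), and 30 runs held 5 or more. A run in Elmo2 (chr2:165317039-165321113) had 6 members in 4.08 kb with no tissue region between them. Elmo2 encodes a partner of Dock exchange factors in engulfment and migration, and its members were 5.30 to 9.23 kb from the nearest tissue peak. Only 1 region of Elmo2 met the rule at equal list lengths. Runs of 6 with no tissue region also lay in St8sia1, Sgms1, in Ano6, a phospholipid scramblase gene (12.8 kb), and in Il31ra, a cytokine receptor gene (22.2 kb). Runs of 6 around 1 to 4 tissue regions lay in Plec, Gnptab, Tbc1d2b and across N4bp2l1 and N4bp2l2.

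In 62 hosts of 3 or more members, of 691 such hosts (8.97%, 7.06 to 11.3%), no region of a tissue list lay in the gene body. This share too has no matching value over other genes and is a description. Ttc27 and Chst11 had the most, with 7 members each. Chst11 (chr10:82984440-83195904) encodes a sulfotransferase that makes chondroitin 4-sulfate. In Chst11 the members were 225, 150, 75, 150, 100, 100 and 225 bp wide and lay 111 to 188 kb from any tissue peak. Its strongest member, of 225 bp, had a p-value of 3.85e-07. Cradd, an adaptor gene of caspase-2, and Ptprr, a phosphatase gene, had 6 each. Uck2, a uridine and cytidine kinase gene (chr1:167222895-167285933), Synj2, Hmga2, Sik3, Zfpm2 and Lama2 had 5 each. Of these, Uck2 held 2 members at p-values of 1e-06 or smaller, the strongest at 1e-12. Sik3, a gene of a salt-inducible kinase (chr9:46012820-46224194), had a region of all 3 lists at a gene end, and the others listed here had none.

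Gene lists were used to describe where members fell by function. The 15 lists named 432 different genes, and each is set beside the values over all protein-coding genes, of which 14.7% were hosts and in which 46.6% of distal intragenic regions were members. The lists were drawn up with earlier results of these data known, and the rule used this contrast, so the shares are descriptions and nothing is read from their distance to 46.6%. A count per list also moves with gene length.

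Transcription factors of the macrophage lineage and of signalling had hosts in 24 of 40 genes and held 101 members of 173 distal regions (58.4%, 50.9 to 65.5%). The list had 32.7 members per Mb of gene body, against 5.86 over all genes. Each of the 15 lists was above 5.86, from 8.64 per Mb upwards, with housekeeping genes at 9.23. Distal regions of all 3 lists were also denser in the transcription factor list, at 6.48 against 2.49 per Mb. After Zmiz1 and Etv6, Bach2 (chr4:32238413-32586109), a repressor gene of lymphoid and myeloid cells, held 11 of 18. Mef2c (chr13:83504017-83667079), a MADS-box factor gene, held 10 of 19. In Mef2c 8 members were 0.126 to 0.351 kb from a tissue peak and the other 2 were 7.20 and 13.2 kb away. One of those 8 Mef2c members, of 200 bp, was at the smallest p-value, 0.301 kb from a tissue peak. Without members that had a tissue peak within 1 kb, 2 of the 10 in Mef2c were left, 7 of 11 in Bach2 and 12 of 12 in Etv6. The share of the list then was 42.2% (35.1 to 49.6%), beside 37.9% over all genes, and at equal list lengths it was 44.2% (34.6 to 54.2%), beside 28.8%. At p-values of 1e-10 or smaller 2 members were left in the list.

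Genes of uptake and adhesion held members in 20 of 33 genes, 56 of 95 distal regions (58.9%, 48.9 to 68.3%). Elmo1 (chr13:20090507-20608353), a partner of Dock proteins in engulfment, held 10 of 15. Itgb5 (chr16:33829665-33949338), the beta chain gene of the vitronectin receptor that binds apoptotic cells through a bridging protein, held 7 of 8. The Itgb5 members were 100, 125, 125, 75, 200, 100 and 125 bp wide and lay 54.9 to 101 kb from any tissue peak, and the remaining region of the gene was called in the converted list alone. Cd36, a scavenger receptor gene, held 4 of 7, and Vav3, an exchange factor gene, held 4 of 7. At equal list lengths Itgb5 had 3 and Cd36 had 4 regions that met the rule, while Vav3 had 0.

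Actin regulators and factors that switch small GTPases had the most members of any list, 129 of 249 distal regions (51.8%, 45.6 to 57.9%), in 32 of 44 genes. These are long genes, with a median of 144 kb. Dock10 (chr1:80501068-80758765), an exchange factor gene, held 11 of 14, and Arhgap24 (chr5:102207198-102905035) held 10 of 19. Dock10 had 0 at equal list lengths and Arhgap24 had 6. Kinases and phosphatases of signalling held 87 of 151 (57.6%, 49.6 to 65.2%) in 29 of 42 genes. After Ptprj, Prkch (chr12:73584796-73778185), a protein kinase C gene, held 9 of 9, and its members were 18.9 to 90.5 kb from a tissue peak. A region of all 3 lists stood at an end of Prkch. Ptpre held 7 of 15 and Prkce 6 of 13. Prkch had 4, Ptpre 6 and Prkce 0 at equal list lengths.

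Lists of pathogen sensing and inflammation were smaller. Pattern recognition and NF-kappaB signalling held 29 of 52 (55.8%, 42.3 to 68.4%) in 14 of 35 genes. Nfkb1 (chr3:135584655-135691969), which encodes the p105 precursor of NF-kappaB, held 8 of 9, Irak2, a kinase of Toll-like receptor signalling, 4 of 4, Rel, an NF-kappaB subunit, 3 of 3 and Tnfaip3, an inhibitor of NF-kappaB signalling, 2 of 2. A region of all 3 lists stood at a gene end in these 4. At equal list lengths Nfkb1 had 1, Irak2 1, Rel 1 and Tnfaip3 2. Inflammatory cytokines and chemokines, which are short genes, held 6 members in 4 of 25 genes, out of 7 distal regions. Il10 (chr1:131019845-131024970), an anti-inflammatory cytokine gene, held 3 of them within 5.13 kb. The Il10 members were 125, 100 and 125 bp wide, at p-values of 3.02e-06, 4.13e-06 and 4.52e-06, and were 75.1 to 75.7 kb from a tissue peak. Tnf, Il1rn and Il18 held 1 member each. At equal list lengths Il10 had 1 region that met the rule and the other 3 genes had 0. With a limit of 2.5 kb from gene ends Il10 and Tnf had 0, and the list held 2 of 3 distal regions.

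The IL-4 list is the one closest to the treatment that all groups shared. It held 13 members of 29 distal regions (44.8%, 28.4 to 62.5%) in 5 of 25 genes. Jak1 (chr4:101151974-101265282), a kinase of cytokine receptors, held 6 of 8, and 5 regions met the rule there at equal list lengths. Tyk2, a further Janus kinase gene, Pdcd1lg2, which encodes PD-L2, and Mrc1, the mannose receptor gene, held 2 each. At equal list lengths Tyk2 and Pdcd1lg2 had 0 and Mrc1 had 1. The list of receptors for TGF-beta, interferons and cytokines also named genes that are not receptors, such as Tgfb1, Smad3 and Skil. That list held 28 of 62 (45.2%, 33.4 to 57.5%) in 18 of 34 genes. The most in a gene was 3, in Il1r1, the IL-1 receptor gene, and in Acvr1, an activin receptor gene.

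Lipid handling genes held 37 of 61 (60.7%, 48.1 to 71.9%) in 15 of 31 genes. Abca1, a cholesterol exporter gene (chr4:53030789-53159988), held 5 of 7, Soat1, which encodes a cholesterol acyltransferase, 4 of 6, and Lrp1, a receptor gene for lipoproteins and protease complexes, 4 of 9. At equal list lengths Abca1 had 2, Soat1 0 and Lrp1 1. Genes of lysosomes and autophagy held 54 of 97 (55.7%, 45.8 to 65.2%) in 19 of 30 genes, of which Vps13d gave 18. Tfeb, the regulator gene of lysosome formation, held 4 of 6, and Mitf, which encodes a relative of it, held 4 of 8.

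Nuclear receptors and their partners held 28 of 59 (47.5%) in 13 of 20 genes, with 5 of 10 in Nr3c1, the glucocorticoid receptor gene, and 5 of 11 in Rarb, a retinoic acid receptor gene. Chromatin regulators held 49 of 96 (51.0%, 41.2 to 60.8%) in 22 of 36 genes. Arid1b, a subunit gene of the BAF remodelling complex, held 7 of 15, Dnmt3a, a DNA methyltransferase gene, 5 of 8, and Kdm6a, a histone demethylase gene, 5 of 6. Nr3c1 and Kdm6a had 1 each at equal list lengths, and Rarb, Arid1b and Dnmt3a had 3 each.

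Genes that mark the peritoneal macrophage populations were described in the same way. Large peritoneal macrophage genes, typical of resident cells, held 15 of 43 distal regions (34.9%, 22.4 to 49.8%) in 7 of 20 genes, or 10.2 per Mb of gene body. Of these 15, Rarb had 5, Serpinb2, a serpin gene, 3, and Laptm5 and F5 2 each. Genes of monocytes and small peritoneal macrophages held 6 of 16 (37.5%, 18.5 to 61.4%) in 5 of 20 genes, or 8.64 per Mb. As for the other lists, nothing is read from the distance of these 2 shares to 46.6%. Cd44, an adhesion receptor gene, had 2 at 70.0 and 70.2 kb from a tissue peak, and Cx3cr1, the fractalkine receptor gene and the locus of the Cre allele, had 1 of 250 bp at 8.42e-06. Itgax, an integrin gene, had 1. Of the 18 housekeeping genes 2, Gusb and Ywhaz, held 1 member each.

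**Figure D5:**
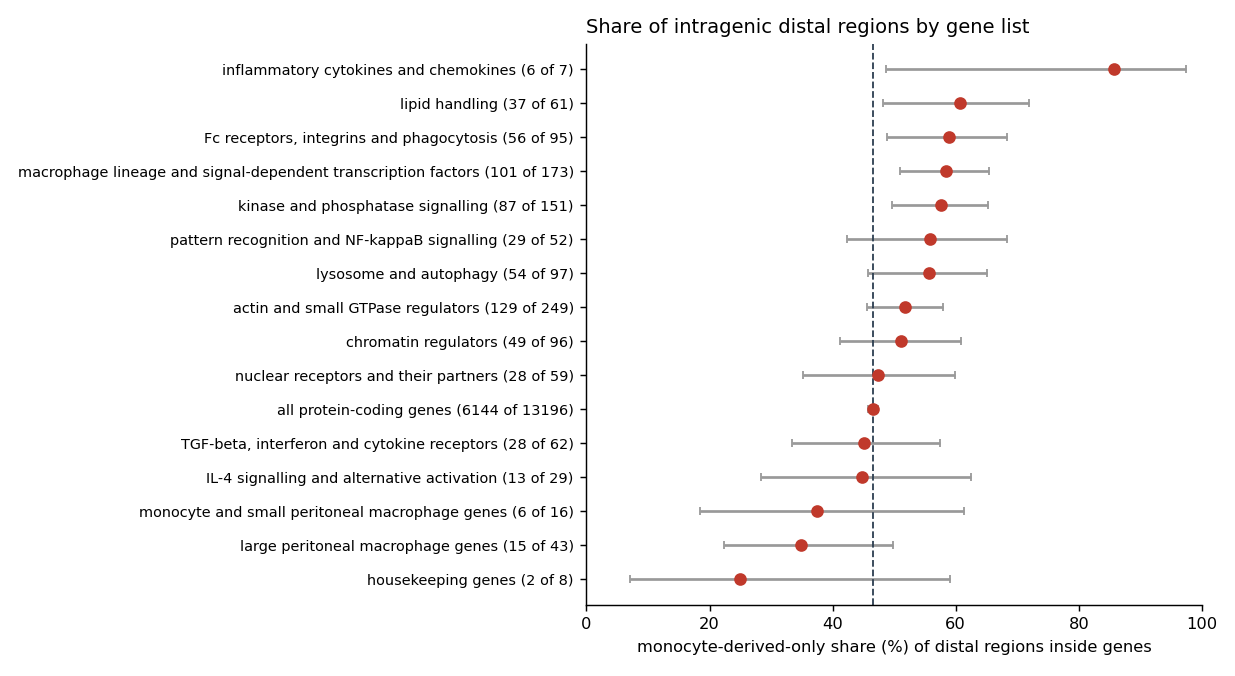
Share of distal intragenic regions that were called in the monocyte-derived list only (x axis, %), for each gene list (y axis, with the number of members and of regions). Points are shares, bars are 95% Wilson intervals and the dashed line is the share over all genes, 46.6%. Shares range from 25% for housekeeping genes (2 of 8) to 85.7% for inflammatory cytokines and chemokines (6 of 7).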

How the data were processed

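ATAC-seq peaks of 9 samples in 3 groups of 3 were used, as 1 merged list per group. The submitters' processing notes name Bowtie2 2.2.9 and the build mm10 (GRCm38). Each deposited list gives positions and, for every peak, the p-value that the authors computed, and it gives no heights. Not given in the sources used here are the peak caller, the shift for Tn5, duplicate removal and how samples were merged, any of which can lengthen or shorten a list. RNA-seq, which the series design names, was not analysed here.

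Peaks on chromosomes 1 to 19 and X were merged and set against 21631 protein-coding genes of RefSeq (GRCm38.p6), whose table has no strand or exons. Strand and letters came from RefSeq's windows around listed starts, which have no chromosome 18. The steps were tested on simulated data. Named genes were the 10 by number, by density (at least 4 members) and by p-value, the 10 densest runs, the first 4 genes of each list, and 5 regions on each side of the 1 kb limit; the hosts without tissue regions were ranked by number, and the genes with sequences were chosen after their values were seen. Some genes under this rule are not reported here. The count of motifs around listed starts was added after the reference tables were seen. Members and lists were chosen with earlier results of these data known. There were 7 alternatives. Python 3.11.15, numpy 2.4.6, pandas 2.3.3, scipy 1.17.1 and matplotlib 3.10.9 were used.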

Additional observations from a re-analysis of the deposited data

How the results depend on the processing

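The 7 alternatives were applied to 7 values: the number of members, the share of members in genes with 3 or more, the share of hosts with a region of all 3 lists at a gene end, the share of members with a tissue peak within 10 kb, the share at the smallest p-value, the median width and the median position. In 23 of 49 cases the value stayed within 1.5 times for the number and within its interval for the others, and in 26 it moved. With each list cut to equal length the number was 2346 (1910 of them among the 6144), the share in genes with 3 or more members 26.1%, the share of hosts with a shared open end 30.0%, the tissue share 46.1%, the share at the smallest p-value 7.20% and the median width 150 bp. With p at most 1e-10 in the monocyte-derived list the number was 122, and these values were 4.92%, 33.6%, 42.6%, 100% by construction and 275 bp, with a median position of 49.2%. With p at most 1e-05 in every list the number rose to 6260, of which 5773 were among the 6144. Hosts with a shared open end were then 35.0%, the tissue share 47.5% and the share at the smallest p-value 2.41%. With a limit of 2.5 kb from gene ends, 51.0% lay in genes with 3 or more, 46.7% had a tissue peak within 10 kb and the median position was 43.9%. Without members that had a tissue peak within 1 kb, these were 45.0%, 37.7% and 42.5%. The 37.7% is lower by construction, since every member removed had a tissue peak within 10 kb. With overlap of 50% of the shorter peak 53.8% lay in genes with 3 or more and 50.5% had a tissue peak within 10 kb. With peaks within 200 bp merged these were 42.5% and 44.1%. The 50% setting also counts peaks of the same list apart where they overlap by less than 50%. Its number was 6772, of which 5778 were among the 6144. Fewer regions or peaks enter under the stricter p-values, the equal lengths, the wider limit and the removal of members near a tissue peak. Apart from the changes named as by construction, the cause of the changes was not tested.

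No paired analysis was possible because the samples of a group were deposited as 1 joint list, so the replicate numbers in the labels cannot be tied to values. Leaving out a replicate was therefore not run. The planned comparison of motifs inside the members was not run because no genome was used here. Depth is unknown and limits every statement on absence from a tissue list.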

Other observations

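Few microRNA genes were close to a member, and few to any merged region. Of 1005 microRNA hairpins listed by RefSeq (GRCm38.p6), 13 (1.29%) lay within 1 kb of a member and 100 within 1 kb of any merged region. Members made up 16.7% of all merged regions, so the small count is not read as a trait of the members. Mir8104, in Ppm1h, and Mir6541, in Wdfy2, overlapped a member. A member of 100 bp (chr9:51103439-51103538, at a deposited p-value of 4.13e-06) in the overlapping genes Hoatz and Btg4 lay 24 bp from the hairpin of Mir34b and 329 bp from that of Mir34c. These belong to the miR-34 family, known as targets of p53. The mature forms of their 3p arms are shown because they share a seed, bases 2 to 8, given in capitals.
mmu-miR-34b-3p: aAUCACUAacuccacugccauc
mmu-miR-34c-3p: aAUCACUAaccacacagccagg

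Expression of these microRNAs was not measured in the data used here. This pair was picked after its position had been seen.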
